A study of Homo sapiens with 12 samples.

Results

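The kinetochore is the protein assembly that joins each chromosome to the microtubules of the mitotic spindle. Expression of 42 genes for its subunits, for centromere proteins and for the chromosomal passenger complex was followed in 12 RNA-seq libraries. These genes were taken by symbol from a table of 58735 features, with 1 row each. They were listed by known function, with no threshold on a measured value, but with earlier results of these data known. All 42 passed the filter on low counts and are among the 16946 genes tested. The libraries come from CAL-27 and SCC-15, established human lines of oral squamous cell carcinoma, and form 4 groups of 3: CAL-27 shControl, CAL-27 shTTK, SCC-15 shControl and SCC-15 shTTK. A short hairpin RNA (sh) lowers the mRNA that it matches, here that of TTK, the kinase also called MPS1. The labels give the shTTK groups the genotype TTK knockdown, give the shControl groups the genotype WT, and call all 12 libraries untreated and batch 1. Whether the controls carry a control hairpin, how many hairpins or clones stand behind a group, and whether the numbered libraries are separate cultures is not stated in the labels. The p-values therefore measure the spread between libraries, which may be technical.

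At the centromere, nucleosomes that hold the histone variant CENP-A mark the site of the kinetochore and bind a constitutive network of CENP proteins. That network carries the KMN network (the KNL1, MIS12 and NDC80 complexes), which holds the microtubule, helped by the SKA complex. Unattached kinetochores recruit the RZZ complex and the checkpoint kinases, TTK among them, which act on KNL1 and NDC80 to hold back anaphase. The chromosomal passenger complex, with the kinase Aurora B, releases faulty attachments. Transcripts of many of these genes peak in G2 and mitosis, so their level in a culture also follows the share of cells in those phases. In such bulk samples, fewer cells in mitosis and less RNA per cell cannot be told apart.

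Library totals ran from 16176655 to 18484112 counts, and a member had between 124 and 5269 counts in a library. Levels are in CPM, counts scaled to a common library size with TMM factors, as mean ± SD (n = 3 libraries) where a mean is given. Fold changes are log2 values of shTTK over shControl with a standard error (SE). The SE was derived from the edgeR test, as the absolute log2 fold change over the square root of its F statistic. A gene is called where the edgeR quasi-likelihood test gives an adjusted p under 0.05, adjusted by Benjamini-Hochberg over all 16946 genes, and "rose" and "fell" are used for called genes. Where leaving out a library or another setting ended the call of a knockdown change or of its difference between the lines, the adjusted p found there follows in brackets. Exons of 16 members overlap those of another gene, and SGO1, CENPC, CENPI, CENPU and SKA2 have a pseudogene named after them, so their counts are uncertain where reads were shared. In SCC-15 library 1 of each group was the one that differed from libraries 2 and 3: the mean chi-square per gene against those libraries was 5.62 and 5.96 for the control and 3.07 and 3.79 for shTTK, against 1.98 and 1.95 between libraries 2 and 3. The median, divided by that expected from counting alone, stood out less. It was 1.92 and 2.11 for the control and 2.195 and 2.63 for shTTK, against 1.76 and 1.77 between libraries 2 and 3. In CAL-27 this ratio ran from 1.94 to 2.14. TTK itself fell from 49.4 ± 3.58 to 33.9 ± 1.57 CPM in CAL-27 (-0.54 ± 0.066, SE, edgeR adjusted p = 4.04e-10) and from 69.9 ± 2.77 to 30.1 ± 3.80 CPM in SCC-15 (-1.21 ± 0.065, SE, edgeR adjusted p = 1.92e-25). All 9 squamous epithelial markers were above 1 CPM in every group, and their summed level ran from 2516 to 2679 CPM in CAL-27 control libraries and from 4398 to 4478 with shTTK, against 7466 to 7794 and 6945 to 6984 in SCC-15. Of 10 fibroblast markers 1 to 3 were above 1 CPM in a group, and their sum lay between 20.7 and 42.5 CPM. Of 10 leukocyte markers 2 were above 1 CPM in CAL-27 and 0 in SCC-15, with CD3D, CD2 and MS4A1 at 0 throughout. The sum of 7 endothelial markers was 102 to 110 CPM in CAL-27 controls and 73.8 to 75.2 with shTTK, nearly all of it CDH5, with KDR at 0, and at most 2.93 CPM in SCC-15. The part of these markers in any result was not tested.

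In CAL-27, 13 of the 42 genes fell with TTK knockdown and 1 rose. In SCC-15, 9 fell and 7 rose. Of all tested genes, 15.7% fell and 11.6% rose in CAL-27, and 14.3% fell and 13.4% rose in SCC-15, so the members' share was 31% lower and 2.38% higher in CAL-27 and 21.4% lower and 16.7% higher in SCC-15. Among the 9108 tested genes with mean levels within the range of the members (10.02 to 288.9 CPM), 23.2% fell and 14.4% rose in CAL-27, and 20.1% fell and 18.9% rose in SCC-15. The changes were small: the median log2 fold change of the 42 was -0.10 in CAL-27 and -0.04 in SCC-15, against -0.01 and 0 over all tested genes. The shTTK libraries did not overlap the controls, and lay below them, for 14 members in CAL-27 (21.3% of all tested genes) and 14 in SCC-15 (19.6%), and lay above them for 1 in CAL-27 (17.1%) and 8 in SCC-15 (19.3%). In CAL-27, 35 of 42 had a value below 0, against 24 of 42 in SCC-15. Adding the 42 genes up gives 2253, 2206 and 2213 CPM in the CAL-27 controls and 2082, 2049 and 2075 CPM with shTTK, groups that do not overlap, with shTTK at 93.0% of control. In SCC-15 the sums were 2276, 2250 and 2232 CPM in the controls and 2212, 2234 and 2244 CPM with shTTK, which overlap, with shTTK at 99.0% of control. The mean of log2(CPM + 1) over the members gives less weight to the genes with the highest levels. By this mean the SCC-15 groups did not overlap, at 5.3303, 5.3063 and 5.2998 in the controls and 5.242, 5.2647 and 5.2754 with shTTK. In CAL-27 it was 5.2587, 5.2374 and 5.2502 in the controls and 5.151, 5.1253 and 5.156 with shTTK, again without overlap.

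**Figure D1:**
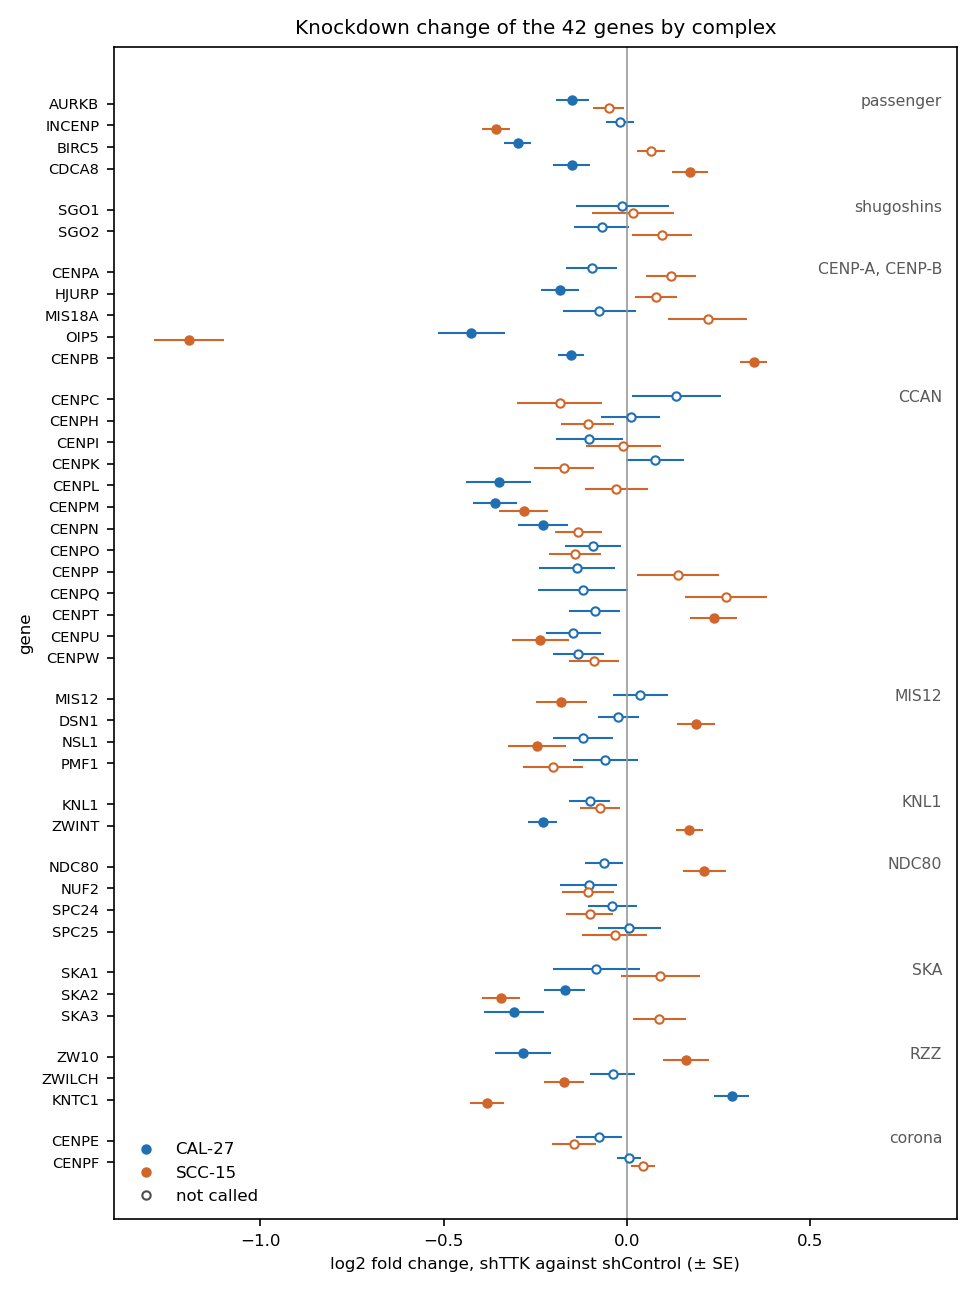
Knockdown changes of the 42 genes, ordered by complex, as log2 fold change of shTTK over shControl in each line, where points are estimates, bars are 1 SE from the edgeR fit and open points are genes not called. OIP5 in SCC-15 lies farthest from 0 at -1.19, and KNTC1 is the gene called higher in CAL-27.

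In all, 3 members fell in both lines: OIP5, CENPM and SKA2. Over all tested genes 4.01% fell in both. Shares of calls in both lines were not taken for the level range of the members, where calls in each line were more frequent. Another 5 members were called in opposite directions, CDCA8, CENPB, ZWINT and ZW10 lower in CAL-27 and higher in SCC-15, and KNTC1 higher in CAL-27 and lower in SCC-15, where the background was 2.90% and 1.91%. No member rose in both lines, against 2.87% of all tested genes. The difference between the lines (SCC-15 change minus CAL-27 change, an interaction in the same fit) was called for 14 members, 11 above 0 and 3 below 0, against 13.3% and 12.1% of all tested genes and 19.7% and 16.1% of those in the level range of the members.

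**Figure D2:**
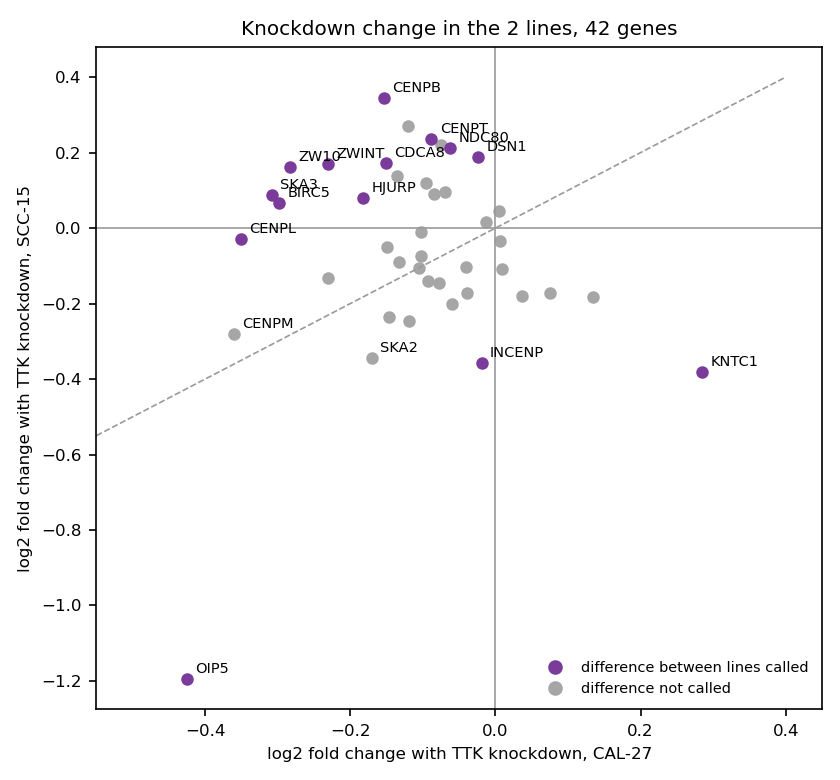
Log2 fold change of each member in SCC-15 (vertical) against CAL-27 (horizontal), where purple points are genes with a called difference between the lines, grey points the others, and the dashed line marks equal change. The genes called lower in both lines sit in the lower left and CDCA8, CENPB, ZWINT and ZW10 in the upper left, each among other genes. KNTC1 is the only purple point in the lower right, where MIS12, called lower in SCC-15, is grey.

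RefSeq promoters (GRCh38.p14, 250 bases before to 50 after the annotated start) were available for 35 of the 42 genes. Those of OIP5 and SKA2 are shown because these genes fell in both lines (CENPM has no entry), with the capitals marking letters of the motifs named next, 5′ to 3′ on the strand of the gene. OIP5 is at chr15:41332542-41332841 (minus strand) and SKA2 at chr17:59155137-59155436 (minus strand).
OIP5: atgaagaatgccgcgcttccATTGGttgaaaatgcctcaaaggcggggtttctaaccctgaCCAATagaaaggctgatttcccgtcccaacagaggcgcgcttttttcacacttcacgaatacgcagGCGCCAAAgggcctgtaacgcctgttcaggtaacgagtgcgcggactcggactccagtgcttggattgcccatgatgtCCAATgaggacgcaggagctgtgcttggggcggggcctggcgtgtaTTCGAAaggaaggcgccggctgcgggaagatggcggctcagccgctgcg
SKA2: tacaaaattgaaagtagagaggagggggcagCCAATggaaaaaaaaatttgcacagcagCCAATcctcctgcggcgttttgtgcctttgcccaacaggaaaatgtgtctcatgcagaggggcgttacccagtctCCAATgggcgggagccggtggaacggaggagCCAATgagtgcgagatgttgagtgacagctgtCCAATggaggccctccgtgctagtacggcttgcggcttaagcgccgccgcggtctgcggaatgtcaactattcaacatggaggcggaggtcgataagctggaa

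The motifs were letters of elements known from cell cycle promoters, chosen after results were known and searched on both strands: the cell cycle genes homology region (CHR), the CCAAT box and E2F-type sites. The CHR was searched as TTTGAA, and also with its centre changed, as TTCGAA. E2F-type sites were searched as TTTCGCGC, TTTGGCGC, TTCCCGCC and TTTCCCGC, and the last pair of these can overlap. The OIP5 window holds a CHR at base 2 of the transcript, CCAAT at positions -230 (minus strand), -189 and -45, and an E2F-type site at -123 (minus strand). SKA2 has no CHR or E2F-type match in its window, and CCAAT 5 times, at -219, -191, -116, -85 and -53. A CHR was found in 18 of 35 member promoters (51.4%), against 13.3% of 14890 protein-coding promoters. CCAAT was in 23 (65.7%, against 36.4%) and an E2F-type site in 9 (25.7%, against 6.80%). Among promoters of 10599 tested genes the shares were 11.1% for the CHR, 36.1% for CCAAT and 8.1% for E2F-type sites. Of the 10 genes with a promoter that fell in CAL-27, 7 held a CHR, as did 11 of the 25 not called. In SCC-15 a CHR was in 4 of 7 that rose, 2 of 7 that fell and 12 of 21 not called. CCAAT was in 8 of 10 that fell and 15 of 25 not called in CAL-27. In SCC-15 it was in 3 of 7 that rose, 6 of 7 that fell and 14 of 21 not called.

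Among the genes that make and load the CENP-A nucleosome, OIP5 changed most. OIP5 (Mis18-beta) is a subunit of the Mis18 complex, which licenses the centromere for new CENP-A after mitosis. In CAL-27 its level was 20.99, 19.2 and 22.5 CPM in the controls and 15.9, 15.2 and 15.6 CPM with shTTK, a change of -0.42 ± 0.092 (SE, edgeR adjusted p = 1.61e-04). In SCC-15 it was 24.001, 23.2 and 20.8 CPM in the controls and 8.75, 10.6 and 10.3 CPM with shTTK, a change of -1.19 ± 0.096 (SE, edgeR adjusted p = 1.83e-17). All shTTK libraries were below all controls of their line, and the fall was the larger in SCC-15, with a difference of -0.77 ± 0.13 (SE, edgeR adjusted p = 3.66e-06). OIP5 lies on chromosome 15, 41309268 to 41332621, minus strand (GRCh38, GENCODE 29). The long non-coding RNA OIP5-AS1 on the opposite strand covers 38% of its exon bases, 470 in all, so the counting of the pair depends on strand, a setting not given in the sources used here. OIP5-AS1 went from 71.4 to 73.8 CPM in CAL-27 (0.048, edgeR adjusted p = 0.503) and from 90.2 to 88.6 CPM in SCC-15 (-0.03, edgeR adjusted p = 0.736), not called in either. NUSAP1, which starts beside OIP5 on the other strand, went from 10.9 to 11.6 CPM in CAL-27 (0.089, edgeR adjusted p = 0.632). In SCC-15 NUSAP1 went from 11.1 to 12.9 CPM (0.22, edgeR adjusted p = 0.146), and it was not called in either line.

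The partner subunit MIS18A was not called in either line (-0.075 in CAL-27 and 0.22 in SCC-15), nor was CENPA (-0.10 and 0.12), the histone variant itself. HJURP, the chaperone that deposits CENP-A, was at 88.7, 83.1 and 85.7 CPM in CAL-27 controls and 78.9, 76.8 and 71.2 CPM with shTTK (-0.18 ± 0.052, SE, edgeR adjusted p = 0.00465). In SCC-15 HJURP was at 52.6, 53.3 and 44.2 CPM in the controls and 53.9, 50.8 and 53.8 CPM with shTTK (0.079 ± 0.057, SE, edgeR adjusted p = 0.336), groups that overlap, and the changes differed between the lines by 0.26 ± 0.077 (SE, edgeR adjusted p = 0.00687). The HJURP call in CAL-27 was lost without library 3 (0.129) of the CAL-27 shTTK group, and that of the difference with any 1 of these left out, library 3 (0.0549) of the CAL-27 shTTK group or library 3 (0.118) of the SCC-15 controls.

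CENPB, the protein that binds the CENP-B box of alpha-satellite DNA, moved in opposite directions. In CAL-27 it was at 171, 173 and 173 CPM in the controls and 155, 156 and 153 CPM with shTTK (-0.15 ± 0.036, SE, edgeR adjusted p = 5.00e-04). In SCC-15 it went from 141, 139 and 149 to 185, 180.3 and 180.2 CPM (0.34 ± 0.036, SE, edgeR adjusted p = 9.64e-13). Neither pair of groups overlapped, and the difference between the lines was 0.50 ± 0.051 (SE, edgeR adjusted p = 4.94e-13). CENPB lies on chromosome 20, as does DSN1, and both rose in SCC-15. Of the 10 nearest tested protein-coding genes on either side of CENPB, 19 of 20 had a change of the same sign in SCC-15, with a median of 0.23, and the median over the chromosome was 0.14, with 22.8% of its genes below 0. DSN1 was not among the members with at least 17 of 20 such neighbours in SCC-15. The part of the chromosome in the change of CENPB or DSN1 was not tested.

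**Figure D3:**
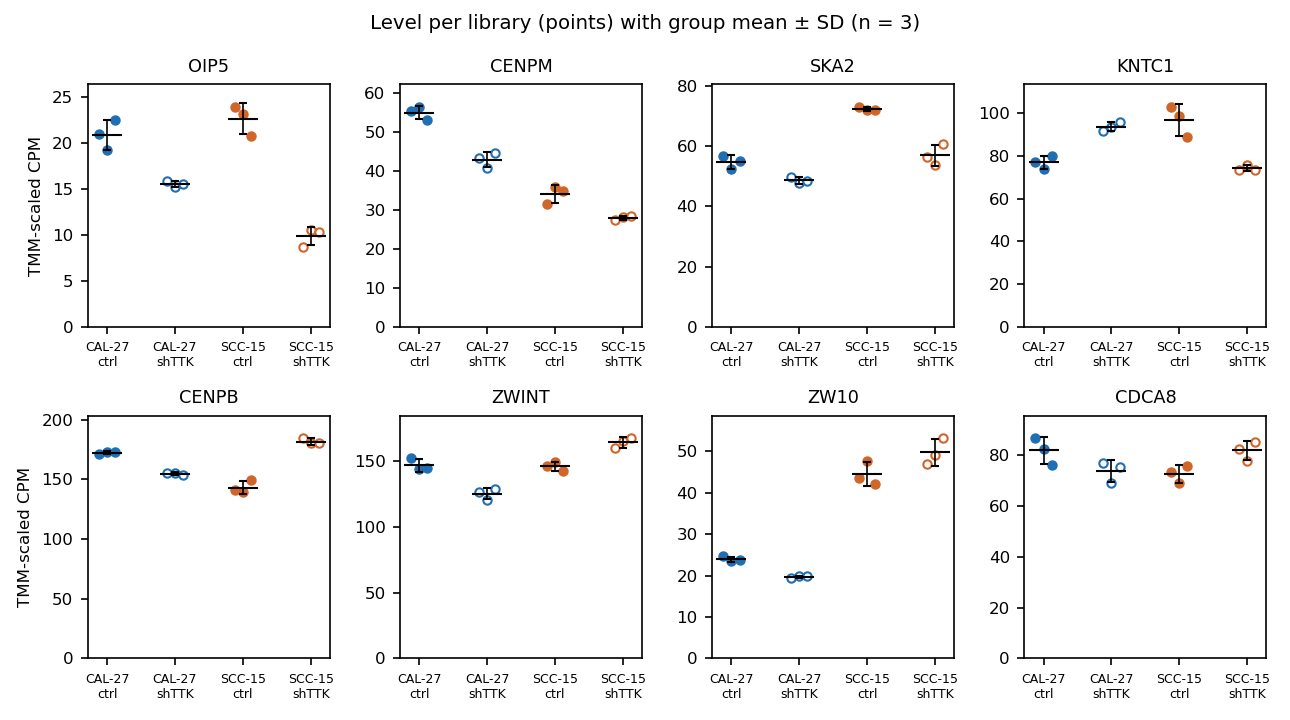
CPM in each of the 12 libraries for OIP5, CENPM, SKA2, KNTC1, CENPB, ZWINT, ZW10 and CDCA8, where points are libraries and dashes with bars are group mean ± SD (n = 3). OIP5 is lower with shTTK in both lines, and KNTC1 and CENPB shift in opposite directions.

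The constitutive network, 13 genes here, had 3 genes that fell and 0 that rose in CAL-27, and 2 that fell and 1 that rose in SCC-15. As shares, 23.1% fell in CAL-27, and 15.4% fell and 7.69% rose in SCC-15. Over all tested genes 15.7% fell and 11.6% rose in CAL-27, and 14.3% fell and 13.4% rose in SCC-15. In the level range of the members 23.2% fell in CAL-27 and 20.1% in SCC-15. CENPM, a subunit with the fold of a small GTPase that does not bind GTP, fell in both. It was at 55.4, 56.6 and 53.1 CPM in CAL-27 controls and 43.3, 40.8 and 44.7 CPM with shTTK (-0.36 ± 0.06, SE, edgeR adjusted p = 1.36e-06). In SCC-15 CENPM was at 31.5, 35.9 and 34.8 CPM in the controls and 27.5, 28.2 and 28.4 CPM with shTTK (-0.28 ± 0.067, SE, edgeR adjusted p = 5.42e-04). The shTTK libraries were below all controls in each line, and no difference between the lines was called (0.078 ± 0.09, SE, edgeR adjusted p = 0.593).

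CENPL and CENPN form the pair of the network that touches the CENP-A nucleosome. CENPL was at 20.2, 23.3 and 21.6 CPM in CAL-27 controls and 18.2, 17.3 and 15.6 CPM with shTTK (-0.35 ± 0.088, SE, edgeR adjusted p = 0.00128), and CENPN at 35.9, 32.6 and 33.3 CPM in the controls and 28.6, 27.9 and 30.2 CPM with shTTK (-0.23 ± 0.068, SE, edgeR adjusted p = 0.00628). Both sets of shTTK libraries lay below the controls. In SCC-15 CENPL was at 21.1, 19.3 and 20.1 CPM in the controls and 18.7, 18.7 and 21.9 CPM with shTTK (-0.029 ± 0.087, SE, edgeR adjusted p = 0.862), and CENPN at 40.5, 39.9 and 39.8 CPM in the controls and 35.3, 38.3 and 36.04 CPM with shTTK (-0.13 ± 0.064, SE, edgeR adjusted p = 0.118), neither called. The difference between the lines was called for CENPL, at 0.32 ± 0.12 (SE, edgeR adjusted p = 0.0463), a call lost with any 1 of these left out, library 2 (0.169) or 3 (0.057) of the CAL-27 controls, library 2 (0.0583) or 3 (0.180) of the CAL-27 shTTK group, library 2 (0.129) or 3 (0.0929) of the SCC-15 controls or library 3 (0.184) of the SCC-15 shTTK group, and also with DESeq2 (0.0683), with limma-voom (0.0501), with every gene with a read kept (0.0834) or with the replicate block (0.0516). The CAL-27 call of CENPN was lost without library 1 (0.0554) of the CAL-27 controls.

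CENPT, whose long arm binds the NDC80 complex, rose in SCC-15, from 35.9, 40.9 and 40.6 to 44.8, 46.1 and 47.4 CPM (0.24 ± 0.064, SE, edgeR adjusted p = 0.00252), all shTTK libraries above the controls. In CAL-27 it was at 31.9, 30.7 and 32.5 CPM in the controls and 27.5, 29.9 and 31.9 CPM with shTTK (-0.088 ± 0.069, SE, edgeR adjusted p = 0.389), and the lines differed by 0.32 ± 0.094 (SE, edgeR adjusted p = 0.00593). Its SCC-15 call was lost without library 1 (0.0547) of the SCC-15 controls. CENPW, the histone-fold partner of CENPT, was not called in either line (-0.13 and -0.09).

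CENPU, which docks Polo-like kinase at the centromere, fell in SCC-15 from 26.1, 24.7 and 23.5 to 21.5, 20.3 and 21.3 CPM (-0.24 ± 0.077, SE, edgeR adjusted p = 0.0148). In CAL-27 CENPU was at 30.1, 27.5 and 27.7 CPM in the controls and 24.6, 26.1 and 26.3 CPM with shTTK (-0.15 ± 0.075, SE, edgeR adjusted p = 0.146), not called although the groups do not overlap. The SCC-15 call was lost with any 1 of these left out, library 1 (0.0922) of the SCC-15 controls or library 2 (0.0829) of the SCC-15 shTTK group, and also without both SCC-15 libraries numbered 1 (0.0978). CENPU shares chromosome 4 with CENPC (-0.18 in SCC-15) and CENPE (-0.14), neither called. The median SCC-15 change over 475 tested protein-coding genes of that chromosome was -0.25, with 80.2% below 0, against a median of -0.03 in CAL-27. Around CENPC 17 of 20 neighbours, and around CENPE 20 of 20, had the sign of the gene in SCC-15. CENPU, the gene called here, was not among the members with at least 17 of 20. The part of the chromosome in these values was not tested.

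In the KMN network 1 of 10 genes changed in CAL-27 and 5 of 10 in SCC-15, where 27.3% and 27.7% of all tested genes changed in either direction. Calls were more frequent in the level range of the members, where 23.2% fell and 14.4% rose in CAL-27. In SCC-15 20.1% fell and 18.9% rose in that range. The MIS12 complex, which bridges the inner and outer kinetochore, had no called gene in CAL-27, where MIS12, DSN1, NSL1 and PMF1 changed by 0.036, -0.024, -0.12 and -0.06. In SCC-15 DSN1, the subunit that Aurora B phosphorylates, went from 61.8, 62.3 and 66.03 to 71.03, 73.6 and 71.9 CPM (0.19 ± 0.052, SE, edgeR adjusted p = 0.00357), and NSL1 from 25.1, 25.1 and 29.97 to 21.4, 23.2 and 22.97 CPM (-0.25 ± 0.08, SE, edgeR adjusted p = 0.0137). All shTTK libraries were above the controls for DSN1 and below them for NSL1, so subunits of 1 complex changed in opposite directions. MIS12 was at 34.9, 32.5 and 33.1 CPM in SCC-15 controls and 29.8, 28.97 and 29.9 CPM with shTTK (-0.18 ± 0.07, SE, edgeR adjusted p = 0.0456), a call close to the threshold. It was lost with any 1 of these left out, library 2 (0.0577) of the CAL-27 controls, library 1 (0.0573) or 3 (0.0543) of the CAL-27 shTTK group, library 1 (0.181), 2 (0.0665) or 3 (0.0878) of the SCC-15 controls or library 1 (0.0823), 2 (0.151) or 3 (0.0754) of the SCC-15 shTTK group, and also with RLE size factors (0.0609), with DESeq2 (0.0883), with every gene with a read kept (0.140), with the replicate block (0.0506) or without both SCC-15 libraries numbered 1 (0.211). The NSL1 call was lost with any 1 of these left out, library 3 (0.236) of the SCC-15 controls or library 1 (0.0774) of the SCC-15 shTTK group.

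In CAL-27 DSN1 was at 51.1, 50.6 and 50.5 CPM in the controls and 44.9, 51.4 and 53.3 CPM with shTTK, NSL1 at 23.7, 25.5 and 22.4 CPM in the controls and 22.1, 20.8 and 23.1 CPM with shTTK, and MIS12 at 23.4, 25.003 and 25.5 CPM in the controls and 24.8, 24.1 and 26.9 CPM with shTTK. For DSN1 alone of the 4 the difference between the lines was called, at 0.21 ± 0.077 (SE, edgeR adjusted p = 0.0324). That call was lost with any 1 of these left out, library 1 (0.0506) or 2 (0.0641) of the CAL-27 controls, library 1 (0.254) of the CAL-27 shTTK group, library 1 (0.0719) or 2 (0.0943) of the SCC-15 controls or library 2 (0.10) of the SCC-15 shTTK group, and also with every gene with a read kept (0.0504) or without both SCC-15 libraries numbered 1 (0.0619).

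ZWINT, which binds KNL1 and helps to place the RZZ complex, had the highest level per kilobase of all exons among the 42 in both control groups and moved in opposite directions. In CAL-27 it was at 153, 144 and 145 CPM in the controls and 127, 121 and 129 CPM with shTTK (-0.23 ± 0.038, SE, edgeR adjusted p = 1.14e-06). In SCC-15 it was at 146, 149.8 and 143 CPM in the controls and 160.1, 166 and 168 CPM with shTTK (0.17 ± 0.037, SE, edgeR adjusted p = 1.96e-04). Neither pair of groups overlapped, and the difference was 0.40 ± 0.054 (SE, edgeR adjusted p = 5.22e-09). KNL1, the scaffold whose repeats TTK phosphorylates, changed by -0.10 in CAL-27 and -0.075 in SCC-15 and was not called.

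NDC80 (HEC1), the subunit that grips the microtubule, rose in SCC-15 from 34.5, 32.7 and 36.9 to 40.4, 39.3 and 40.9 CPM (0.21 ± 0.059, SE, edgeR adjusted p = 0.00383). In CAL-27 NDC80 was at 79.9, 74.7 and 78.3 CPM in the controls and 72.7, 76.001 and 74.2 CPM with shTTK (-0.063 ± 0.051, SE, edgeR adjusted p = 0.406), and the lines differed by 0.27 ± 0.078 (SE, edgeR adjusted p = 0.00503). Its partners NUF2, SPC24 and SPC25 were not called in either line, with changes of -0.10, -0.04 and 0.0061 in CAL-27 and -0.11, -0.10 and -0.034 in SCC-15.

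The SKA complex stabilises the hold of NDC80 on a shortening microtubule. SKA2 fell in both lines, from 56.8, 52.4 and 55.2 to 49.9, 47.8 and 48.3 CPM in CAL-27 (-0.17 ± 0.055, SE, edgeR adjusted p = 0.0136) and from 73.2, 71.9 and 72.1 to 56.6, 53.7 and 60.7 CPM in SCC-15 (-0.34 ± 0.052, SE, edgeR adjusted p = 1.22e-07). In both lines the shTTK libraries were below all controls, and the difference between the lines was not called (-0.17 ± 0.076, SE, edgeR adjusted p = 0.0843). The CAL-27 call was lost with any 1 of these left out, library 1 (0.0693) of the CAL-27 controls or library 2 (0.0512) or 3 (0.0845) of the CAL-27 shTTK group, and also with every gene with a read kept (0.0519). SKA2 lies on chromosome 17, 59109951 to 59155269, minus strand (GRCh38, GENCODE 29), and reads may be shared with a pseudogene named after it. PRR11, which starts beside SKA2 on the other strand, changed by -0.27 in CAL-27 (edgeR adjusted p = 4.94e-06) and by 0.01 in SCC-15 (edgeR adjusted p = 0.904). SKA3 fell in CAL-27, from 24.2, 24.2 and 23.6 to 19.95, 19.3 and 18.9 CPM (-0.31 ± 0.081, SE, edgeR adjusted p = 0.00198), with no overlap of the groups. In SCC-15 it was at 33.3, 29.2 and 30.1 CPM in the controls and 31.7, 36.4 and 30.3 CPM with shTTK (0.088 ± 0.073, SE, edgeR adjusted p = 0.416), and the lines differed by 0.40 ± 0.11 (SE, edgeR adjusted p = 0.00344). SKA1 was not called (-0.084 and 0.09).

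The RZZ complex, which brings dynein and the checkpoint proteins MAD1 and MAD2 to unattached kinetochores, had 3 of 3 genes that changed in at least 1 line, against 43.3% of all tested genes. That share was not taken for the level range of the members, where calls in each line were more frequent. KNTC1 (ROD), its large subunit, rose in CAL-27, from 77.3, 73.9 and 79.9 to 91.8, 93.6 and 95.98 CPM (0.28 ± 0.047, SE, edgeR adjusted p = 9.38e-07). In SCC-15 KNTC1 fell from 103, 98.6 and 88.8 to 73.7, 75.9 and 73.4 CPM (-0.38 ± 0.047, SE, edgeR adjusted p = 2.59e-10). Neither pair of groups overlapped, and the difference of -0.67 ± 0.066 (SE, edgeR adjusted p = 1.72e-13) has the smallest adjusted p among the 42.

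ZW10 went the other way. In CAL-27 it was at 24.6, 23.4 and 23.8 CPM in the controls and 19.3, 19.9 and 19.8 CPM with shTTK (-0.28 ± 0.076, SE, edgeR adjusted p = 0.00273), with no overlap. In SCC-15 it was at 43.7, 47.7 and 42.2 CPM in the controls and 47.002, 49.1 and 53.3 CPM with shTTK (0.16 ± 0.062, SE, edgeR adjusted p = 0.0451), called higher although the groups overlap, and the lines differed by 0.44 ± 0.099 (SE, edgeR adjusted p = 2.67e-04). The SCC-15 call of ZW10 was lost with any 1 of these left out, library 1 (0.133) or 3 (0.202) of the SCC-15 controls or library 2 (0.0575) or 3 (0.283) of the SCC-15 shTTK group, and also with DESeq2 (0.0593), with the replicate block (0.0512) or without both SCC-15 libraries numbered 1 (0.0633). ZWILCH fell in SCC-15, from 67.3, 66.97 and 65.2 to 61.2, 55.6 and 60.4 CPM (-0.17 ± 0.055, SE, edgeR adjusted p = 0.0123), a call lost with any 1 of these left out, library 2 (0.0546) of the SCC-15 controls or library 2 (0.152) of the SCC-15 shTTK group. In CAL-27 ZWILCH was at 35.5, 41.1 and 40.3 CPM in the controls and 38.6, 37.9 and 37.2 CPM with shTTK (-0.039 ± 0.062, SE, edgeR adjusted p = 0.706).

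KNTC1 and ZWILCH also lie among genes that moved with them in SCC-15: 18 of 20 neighbours of KNTC1 and 18 of 20 of ZWILCH had a value below 0, with medians of -0.21 and -0.17. In CAL-27 the neighbours of KNTC1 had a median of 0.058. At least 17 of 20 neighbours shared the sign for 7 of 41 members in SCC-15 (INCENP, CDCA8, CENPB, CENPC, ZWILCH, KNTC1 and CENPE) and for 0 of 41 in CAL-27. The same held for 7.59% and 0.696% of the 12935 genes with enough neighbours, a limit chosen after the values were seen. Its part in the results was not tested.

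In the chromosomal passenger complex, 3 of 4 genes fell in CAL-27, against 15.7% of all tested genes and 23.2% of those in the level range of the members. BIRC5 (survivin), which brings the complex to phosphorylated histone H3, went from 168, 168 and 170.1 to 136, 137 and 139.8 CPM in CAL-27 (-0.30 ± 0.037, SE, edgeR adjusted p = 3.97e-10), with no overlap. In SCC-15 it was at 135, 138 and 137 CPM in the controls and 149, 143 and 137 CPM with shTTK (0.066 ± 0.037, SE, edgeR adjusted p = 0.202), and the lines differed by 0.36 ± 0.053 (SE, edgeR adjusted p = 4.61e-08). AURKB, the kinase, was at 79.7, 84.001 and 80.6 CPM in CAL-27 controls and 72.9, 71.9 and 75.5 CPM with shTTK (-0.15 ± 0.045, SE, edgeR adjusted p = 0.00722), and its groups do not overlap. In SCC-15 AURKB was at 101, 104 and 102 CPM in the controls and 101, 99.1 and 96.5 CPM with shTTK (-0.05 ± 0.042, SE, edgeR adjusted p = 0.431), not called. The CAL-27 call of AURKB was lost with any 1 of these left out, library 2 (0.114) of the CAL-27 controls or library 1 (0.0587) of the CAL-27 shTTK group.

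CDCA8 (borealin) was at 86.8, 82.6 and 76.2 CPM in CAL-27 controls and 77.03, 69.1 and 75.3 CPM with shTTK (-0.15 ± 0.05, SE, edgeR adjusted p = 0.0164), called lower although the groups overlap. In SCC-15 it rose from 73.4, 68.9 and 75.8 to 82.5, 77.8 and 85.3 CPM (0.17 ± 0.05, SE, edgeR adjusted p = 0.00536), and the lines differed by 0.32 ± 0.07 (SE, edgeR adjusted p = 2.13e-04). The CAL-27 call was lost with any 1 of these left out, library 1 (0.141) or 2 (0.0932) of the CAL-27 controls or library 2 (0.163) or 3 (0.0535) of the CAL-27 shTTK group, and also with every gene with a read kept (0.0519), and the SCC-15 call without library 2 (0.0543) of the SCC-15 controls. INCENP, the scaffold that activates Aurora B, fell in SCC-15 from 149, 155 and 150.1 to 115, 123 and 117 CPM (-0.36 ± 0.039, SE, edgeR adjusted p = 3.62e-12). In CAL-27 INCENP was at 131, 132 and 125 CPM in the controls and 130.2, 129.8 and 124 CPM with shTTK (-0.019 ± 0.039, SE, edgeR adjusted p = 0.782), and the lines differed by -0.34 ± 0.055 (SE, edgeR adjusted p = 7.61e-07). In SCC-15 the sign of the change was shared by 19 of 20 neighbours of INCENP and 18 of 20 of CDCA8. SGO1 and SGO2, the shugoshins that protect centromeric cohesin, were not called in either line (-0.013 and -0.07 in CAL-27, 0.017 and 0.095 in SCC-15). CENPE, a kinesin of the corona, and CENPF were not called either (-0.077 and 0.0049 in CAL-27, -0.14 and 0.044 in SCC-15).

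Over both lines, 20 of the 42 genes were called in neither, against 56.7% of all tested genes. This share, too, was not taken for the level range of the members, where calls in each line were more frequent. The changes that were not called, 28 in CAL-27 and 26 in SCC-15, lay between -0.15 and 0.13 and between -0.20 and 0.27.

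Genes of neighbouring processes, from lists that hold no member, were read in the same fit. Their counts stand beside those over all tested genes, where 15.7% fell and 11.6% rose in CAL-27, and 14.3% fell and 13.4% rose in SCC-15. Among genes in the level range of the members 23.2% fell and 14.4% rose in CAL-27, and 20.1% fell and 18.9% rose in SCC-15. That range does not cover every listed gene. The medians over all tested genes were -0.01 in CAL-27 and 0 in SCC-15. Of 27 other kinetochore and centromere genes 1 rose and 4 fell in CAL-27 and 4 rose and 6 fell in SCC-15, with medians of 0.0066 in CAL-27 and -0.063 in SCC-15. PLK1, Polo-like kinase, changed by -0.21 (edgeR adjusted p = 9.38e-07) and CLASP1, a microtubule plus-end protein, by 0.22 (edgeR adjusted p = 6.34e-05) in CAL-27. In SCC-15 SPDL1 (spindly), the dynein adaptor that RZZ recruits, rose by 0.54 (edgeR adjusted p = 1.11e-13) and KIF2C, the microtubule-depolymerising kinesin, by 0.25 (edgeR adjusted p = 1.97e-07). Of 10 spindle checkpoint genes, TTK included, 0 rose and 5 fell in CAL-27 and 2 rose and 2 fell in SCC-15, with medians of -0.12 in CAL-27 and 0.016 in SCC-15. CDC20, the activator of the anaphase-promoting complex that the checkpoint blocks, changed by -0.19 in CAL-27 (edgeR adjusted p = 8.22e-07) and 0.20 in SCC-15 (edgeR adjusted p = 1.47e-07). Of 22 cohesin and condensin genes 0 rose and 8 fell in CAL-27, with the smallest adjusted p for ESCO2 (-0.36) and NCAPD3 (-0.18), and 5 rose and 4 fell in SCC-15, with the smallest for the cohesin regulators PDS5A (-0.31) and PDS5B (-0.34), with medians of -0.032 in CAL-27 and 0.013 in SCC-15.

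Markers of cycling cells were read beside the members. Of 18 proliferation markers 0 rose and 10 fell in CAL-27 (median -0.13) and 7 rose and 3 fell in SCC-15 (median 0.06), with 8 not called in each line. Over all tested genes 15.7% fell and 11.6% rose in CAL-27, and 14.3% fell and 13.4% rose in SCC-15. In the level range of the members, which markers such as MCM7 exceed, 23.2% fell and 14.4% rose in CAL-27, and 20.1% fell and 18.9% rose in SCC-15. The difference between the lines was called for 10 of the 18 markers, all above 0. Of all tested genes 13.3% had a called difference above 0, and of those in the level range of the members 19.7%. Their summed level was 3861 to 3884 CPM in CAL-27 controls and 3524 to 3703 CPM with shTTK, and 5004 to 5067 CPM in SCC-15 controls and 5309 to 5343 CPM with shTTK, where the summed level of the members overlapped between the groups. RRM2, a subunit of ribonucleotide reductase, changed by -0.35 and PCNA, the sliding clamp of replication, by -0.19 in CAL-27. In SCC-15 the replicative helicase subunit MCM7 rose by 0.26 and the licensing inhibitor GMNN changed by -0.29. Of 23 regulators of G2/M transcription 0 rose and 8 fell in CAL-27 and 7 rose and 7 fell in SCC-15, with medians of -0.093 in CAL-27 and 0.0032 in SCC-15. FOXM1, a transcription factor of mitotic genes, changed by -0.37 in CAL-27 (edgeR adjusted p = 5.86e-13). MYBL2, another such factor, changed by -0.26 in CAL-27 (edgeR adjusted p = 3.31e-09) and 0.32 in SCC-15 (edgeR adjusted p = 4.35e-14), and CDKN1A, which encodes p21, rose by 0.44 in SCC-15. The part of proliferation in the members' changes was not tested.

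The control groups of the lines differed in most members. Of the calls between the controls 29 were kept under every alternative, and 4, not named here, were lost under at least 1. Of the 42 genes 22 were higher and 11 lower in SCC-15 controls than in CAL-27 controls, against 37.8% and 38.2% of all tested genes (76% in either direction) and 45.3% and 39.2% of those in the level range of the members, with a median of 0.20 against -0.01. NDC80 was lowest relative to CAL-27, at 79.9, 74.7 and 78.3 CPM in CAL-27 and 34.5, 32.7 and 36.9 CPM in SCC-15 (-1.16 ± 0.055, SE, edgeR adjusted p = 1.39e-31). CENPI, which with CENPH, CENPK and CENPM forms a subcomplex of the network, was at 20.1, 21.9 and 20.002 CPM in CAL-27 and 10.5, 11.7 and 13.1 CPM in SCC-15 (-0.81 ± 0.096, SE, edgeR adjusted p = 6.47e-12). HJURP and CENPM were lower in SCC-15 too (-0.78 ± 0.054 and -0.69 ± 0.062, SE). In these 4 genes the controls of the lines do not overlap. On the other side, ZW10 (0.89 ± 0.068, SE) and ZWILCH (0.77 ± 0.058, SE) of the RZZ complex were higher in SCC-15, as was SGO1, at 7.61, 7.90 and 8.17 CPM in CAL-27 and 12.6, 12.3 and 11.4 CPM in SCC-15 (0.62 ± 0.12, SE, edgeR adjusted p = 3.25e-06). CENPH was at 20.8, 21.5 and 25.7 CPM in CAL-27 and 36.002, 32.6 and 31.5 CPM in SCC-15 (0.56 ± 0.076, SE, edgeR adjusted p = 5.26e-10), so CENPH differed in the opposite direction to CENPI and CENPM of the same subcomplex. In this comparison 17 of 20 neighbours of ZW10 (median 0.84) and 17 of 20 of SGO1 (median 0.46) had the sign of the gene, against 10 of 20 for ZWILCH. At least 17 of 20 did so for 4 of 41 members (BIRC5, SGO1, DSN1 and ZW10) and for 12.1% of the 12935 genes, and the part of this in the results was not tested. The control groups did not overlap for 22 members higher in SCC-15 (38.2% of all tested genes) and 12 lower (39.1%). All 3 RZZ and all 3 SKA genes were higher in SCC-15 controls.

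Per kilobase of exon, member levels spanned 1.09 to 61.9 CPM per kb in CAL-27 controls (median 8.77) and 1.03 to 61.5 in SCC-15 controls (median 10.4). ZWINT (61.9 ± 2.08 and 61.5 ± 1.46 CPM per kb) and CENPB (60.7 ± 0.403 and 50.4 ± 1.90) were at the top in both lines, although scaling by the longest transcript instead puts CENPB at rank 4 in both and, in SCC-15, AURKB (81.6) above ZWINT (74.6). Within the NDC80 complex, whose 4 subunits act in equal number, NDC80 was highest in CAL-27 at 21.6 CPM per kb, with SPC24 at 12.4, SPC25 at 11.4 and NUF2 at 7.75. In SCC-15 NDC80 was lowest of the 4 at 9.65 CPM per kb, with SPC25 at 10.2, NUF2 at 10.9 and SPC24 at 14.96. In SCC-15 NDC80 (9.65 ± 0.590) and SPC25 (10.2 ± 0.389) do not differ beyond their spread, and scaling by the longest transcript puts NDC80 (15.99) above SPC25 (13.8).

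**Figure D4:**
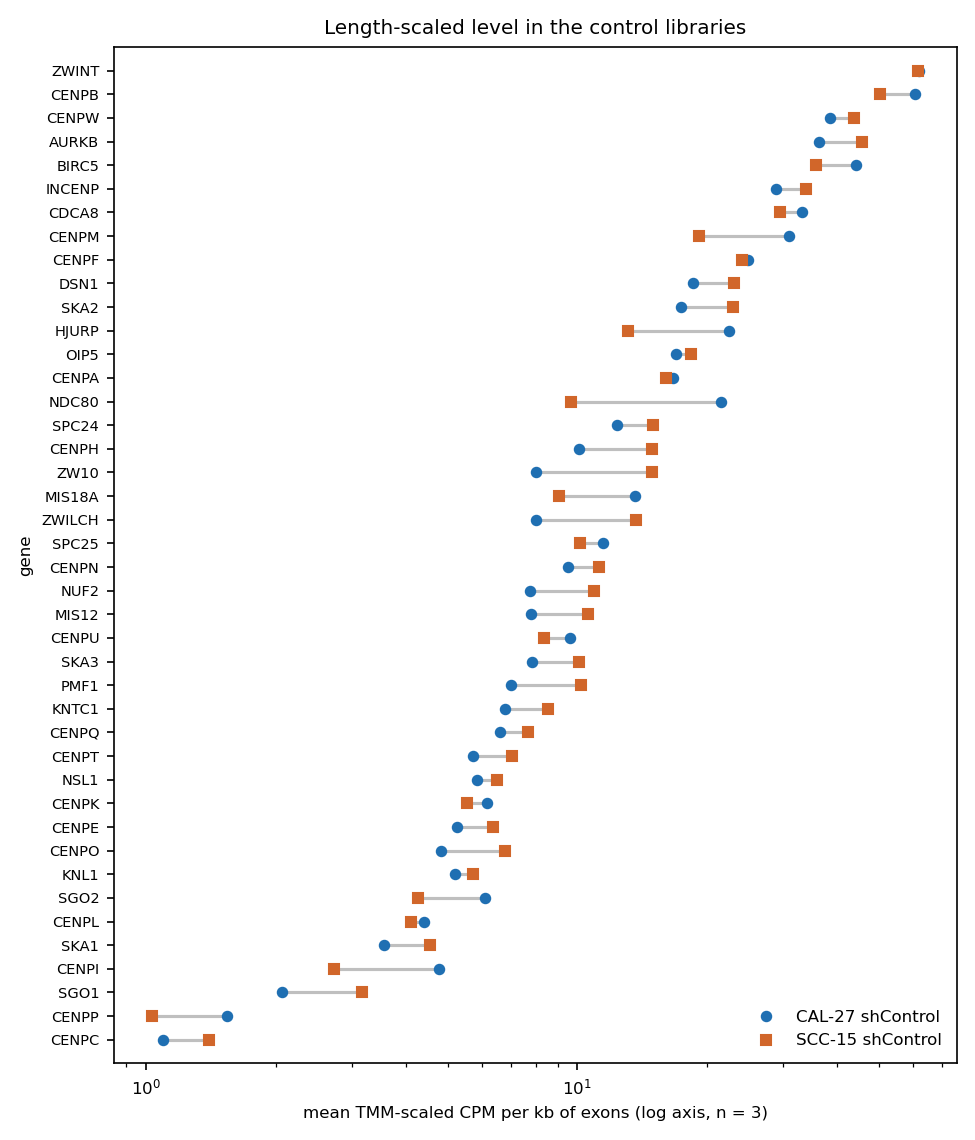
Length-scaled level (CPM per kb of union exon, log axis) of each member in the shControl libraries of CAL-27 and SCC-15, as group means (n = 3) joined by a line for each gene. ZWINT and CENPB are at the top in both lines, and NDC80 stands at 21.6 in CAL-27 and 9.65 in SCC-15.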

How the data were processed

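The 12 libraries are poly(A)-selected, strand-specific (dUTP) and read as paired ends of 150 bases, per the labels' protocols. The authors deposited 1 table of raw counts per gene, whole numbers with no normalization. The submitters' processing notes name Trim Galore 0.6.6, STAR 2.7.7a, featureCounts 2.0.1 and the build hg38. For featureCounts, the strand setting, the handling of reads with several matches and the annotation release were not given in the sources used here. Columns were mapped to samples by their names, and groups came from the sample titles.

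From these counts, 16946 of 58735 features passed edgeR's filterByExpr over the 4 groups. The quasi-likelihood test of edgeR 4.0.16 (R 4.3.3, TMM scaling, robust, all 12 libraries in 1 fit, 8 residual degrees of freedom) gave the 4 contrasts: shTTK against shControl in each line, the difference between those changes, and the control groups against each other. P-values were adjusted over all tested genes, and the script was tested on simulated data. Every one of the 42 members is described by its complex. Values in each library are given for members called in a knockdown contrast or in the difference, and for the 4 largest called control differences in each direction. From each other gene list, up to 2 genes per knockdown contrast with the smallest adjusted p are named, besides genes that share exons or a start region with a member. Members and lists were chosen with earlier results of these data known. Gene positions and exon lengths are from GENCODE 29, which holds 58708 of the feature symbols and all 42 members. The other 27 features have date-like symbols and 0.183% of counts, and none is a member. Alternatives were DESeq2 1.42.0, limma 3.58.1 (voom), RLE size factors, other filters, separate fits, a replicate block, each library left out and, chosen after seeing the data, both SCC-15 libraries numbered 1 left out.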

Additional observations from a re-analysis of the deposited data

Results flagged for a closer look

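The knockdown change differed between the lines, by the interaction in the edgeR fit, for TTK and 14 members. All differences are log2 values of SCC-15 minus CAL-27, and no explanation was weighed. TTK itself differed by -0.67, a larger fall in SCC-15, and every other difference stands beside that unequal knockdown. Differences below 0 were those of OIP5 (-0.77), KNTC1 (-0.67) and INCENP (-0.34). OIP5 fell in both lines, KNTC1 rose in CAL-27 and fell in SCC-15, and INCENP fell in SCC-15 and was not called in CAL-27.

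Among the 11 above 0, those of CENPB (0.50), ZW10 (0.44), ZWINT (0.40) and CDCA8 (0.32) belong to genes called lower in CAL-27 and higher in SCC-15. SKA3 (0.40), BIRC5 (0.36), CENPL (0.32) and HJURP (0.26) fell in CAL-27 and were not called in SCC-15. CENPT (0.32), NDC80 (0.27) and DSN1 (0.21) rose in SCC-15 and were not called in CAL-27. The calls of CENPL and DSN1 were lost in 11 and 8 of 19 alternatives. That of HJURP was lost when certain single libraries were left out, as given above. The other 11 calls of a difference were kept under every alternative.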

How the results depend on the processing

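No count of called members moved by over 1.5 times, and no called change of a member or TTK changed sign, under any alternative run, while some changes that were not called did. Calls of members were kept under every alternative for 9 in CAL-27, 9 in SCC-15 and 11 in the difference between the lines. The other 5, 7 and 3 calls were lost under at least 1 alternative. With each library left out in turn, members called higher ranged from 1 to 1 and lower from 10 to 13 in CAL-27, and from 6 to 8 and from 6 to 9 in SCC-15. The difference between the lines had 9 to 12 above 0 and 3 to 4 below 0, and the controls 21 to 23 higher and 10 to 12 lower. Without both SCC-15 libraries numbered 1, a choice made after seeing the data, SCC-15 had 7 higher, of which 6 were shared with the reported ones, and 7 lower, and CAL-27 had 1 and 13. The mean of log2(CPM + 1) over the members changed by -0.0514 in SCC-15, against a log2 ratio of the sums of -0.01. The SCC-15 groups did not overlap by that mean, but did by the sums. Scaled by the longest transcript, the median member level was 14.05 CPM per kb in CAL-27 controls and 15.29 in SCC-15 controls, higher than over all exons because that length is shorter. Of the values of single genes under the alternatives other than that one, 3116 stayed on their side of the threshold, 69 lost a call, 33 gained one and 7 that were not called changed sign and moved by at least their SE.

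Calls gained were few by gene: in SCC-15 CENPQ was called with any 1 of these left out, library 1 (0.0488) or 3 (0.0446) of the CAL-27 controls or library 1 (0.025) of the SCC-15 shTTK group, and also with every gene with a read kept (0.0448), with each line or the controls fitted alone (0.0263) or with the replicate block (0.0458), PMF1 without library 3 (0.0184) of the SCC-15 shTTK group, and also with limma-voom (0.0400), with the filter of 1 CPM in 3 libraries (0.049) or with each line or the controls fitted alone (0.0400), SGO2 without library 1 (0.0237) of the SCC-15 controls, and also without both SCC-15 libraries numbered 1 (0.0321), CENPE without library 3 (0.0176) of the SCC-15 controls, and also with each line or the controls fitted alone (0.0497) and MIS18A without library 2 (0.00845) of the SCC-15 controls. CENPQ, SGO2 and MIS18A also gained a call in the difference between the lines, in 3, 2 and 2 of 19 alternatives. The replicate numbers did not pair the libraries: deviations of same-numbered libraries correlated at -0.0648 to 0.0682 over 18 pairs, 0 of them over 0.1, and 6 of 12 libraries correlated best with their own number. With the replicate block, 1 member was higher and 13 lower in CAL-27, 7 and 8 in SCC-15, and 10 and 3 in the difference.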
